A study of Mus musculus with 24 samples.

Results

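The 3′UTR of the Selenop mRNA (ENSMUSG00000064373.12) was followed nucleotide by nucleotide in ribosome profiling libraries of mouse liver. It was taken as nucleotides 1289 to 2096 of the mRNA, which are 808 of the 2096 positions measured, each treated as a region. Its start was set from the counts, after the last densely covered codon, and the sites at nucleotides 1645 to 1647, at 1658 and at 2009 to 2033 were chosen by their A-site counts in the same libraries. The values at those sites are therefore given as a description and without a test.

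Selenop encodes selenoprotein P, which liver secretes and which carries selenium in plasma. Its reading frame holds several UGA codons that are read as selenocysteine, and this reading needs SECIS elements, stem-loop structures in the 3′UTR that recruit the selenocysteine machinery to the ribosome. Selenop is unusual in having a pair of such elements, SECIS1 and SECIS2. Ribosome profiling sequences the mRNA fragments that resist nuclease digestion. Most are covered by ribosomes, but a protected fragment does not by itself show what protected it.

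The study compared mice with a genomic deletion of SECIS1 or of SECIS2 with wild type mice of each line, all of strain C57Bl6, fed standard chow and sampled as liver. Footprint libraries numbered 3 for wild type and 2 for deletion in the SECIS1 line, and 3 for wild type and 3 for deletion in the SECIS2 line. A further library, titled H19:H391, is headed as a SECIS1 deletion in the count table, but its title names no group, so it stayed out of every group. The age and sex of the mice, the extent of the deletions and the positions of SECIS1 and SECIS2 on the mRNA are not given in the sources used here.

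The values were A-site counts, footprints assigned to the nucleotide at their A site, the place in the ribosome where the next tRNA enters. Total counts on the mRNA ran from 17585 to 66070 in the 11 grouped libraries. To compare libraries, 3′UTR counts were expressed per 1000 counts at nucleotides 173 to 313, an upstream stretch of the reading frame that held 1897 to 13516 counts. The labels do not state that libraries came from separate animals, so tests measure the spread between these libraries, which may be technical. All libraries of a line share the first number of their library identifier, which differs from that of the other line. Line and whatever that number stands for cannot be told apart. Since only the Selenop table was used, the liver label was not checked against marker genes.

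SECIS2 wild type library 3 stood apart from the other wild type libraries. Its 3′UTR held 4.95% of its counts, while the other 5 wild type libraries held 25.4% to 47.8% there. Means of the SECIS2 wild type group and differences from it are therefore given with and without that library.

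The edge of the 3′UTR was set where dense counts end, so the fall in counts across it restates that choice. Nucleotide 1286, just before it, held 55, 45 and 19 counts in SECIS1 wild type, 2 and 1 in the SECIS1 deletion, 11, 4 and 29 in SECIS2 wild type, against 24, 13 and 22 in the SECIS2 deletion. Nucleotide 1288 held 0 counts in every library, 1289 held 1 count in 1 library, and 1290 held none. The first 20 nt of the 3′UTR held 0 to 8 counts per library.

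The 3′UTR of wild type and SECIS2 deletion libraries carried a large number of counts at very few positions, and the SECIS1 deletion lacked them. SECIS1 wild type libraries held 16762, 21201 and 10797 counts in the 3′UTR, or 1240, 2813 and 1904 per 1000 upstream counts. The SECIS1 deletion libraries held 23 and 44 counts, or 3.90 and 8.33 per 1000 upstream. The groups did not overlap, and both deletion libraries lay far below the lowest wild type library.

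SECIS2 wild type libraries held 19467, 6881 and 1540 counts in the 3′UTR, or 4983, 3627 and 251 per 1000 upstream. SECIS2 deletion libraries held 4142, 4340 and 5955 counts, or 681, 671 and 1360 per 1000 upstream. Libraries 1 and 2 of the SECIS2 wild type lay above all 3 deletion libraries and library 3 lay below all of them, so the groups overlapped.

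As group means per 1000 upstream counts, these are 1986 ± 790 (SD, n = 3) in SECIS1 wild type, 6.11 ± 3.13 (SD, n = 2) in the SECIS1 deletion, 2954 ± 2437 (SD, n = 3) in SECIS2 wild type, against 904 ± 395 (SD, n = 3) in the SECIS2 deletion. Without SECIS2 wild type library 3 the SECIS2 wild type mean was 4305 ± 958 (SD, n = 2). These sums are mostly counts at the sites that chose the 3′UTR, so their differences are a description with no test. On the log2 scale the SECIS1 deletion differed from its wild type by -8.37 (SE 0.64). The SECIS2 deletion differed by -0.96, with an SE of 1.41 that is larger than the difference. Without SECIS2 wild type library 3 that difference was -2.32, with no overlap, and with the 5 highest positions of each library left out it was 0.52 in the other direction.

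The wild types of the lines overlapped, with a log2 difference of 0.18 for SECIS1 over SECIS2 wild type (SE 1.41), again as a description. Without SECIS2 wild type library 3 it was -1.18.

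The authors' deposited ratio sets footprint counts against Selenop RNA reads. In bulk liver, fewer cells of a type and less RNA per cell cannot be told apart. Summed over the 3′UTR, it was 0.106, 0.176 and 0.155 in SECIS1 wild type, 0.000325 and 0.000685 in the SECIS1 deletion, 0.244, 0.178 and 0.0120 in SECIS2 wild type, against 0.0360, 0.0328 and 0.0746 in the SECIS2 deletion. The order of the libraries within each line was that on the upstream scale: the SECIS1 deletion lay below every other library, and SECIS2 wild type library 3 lay below the SECIS2 deletion.

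**Figure D1:**
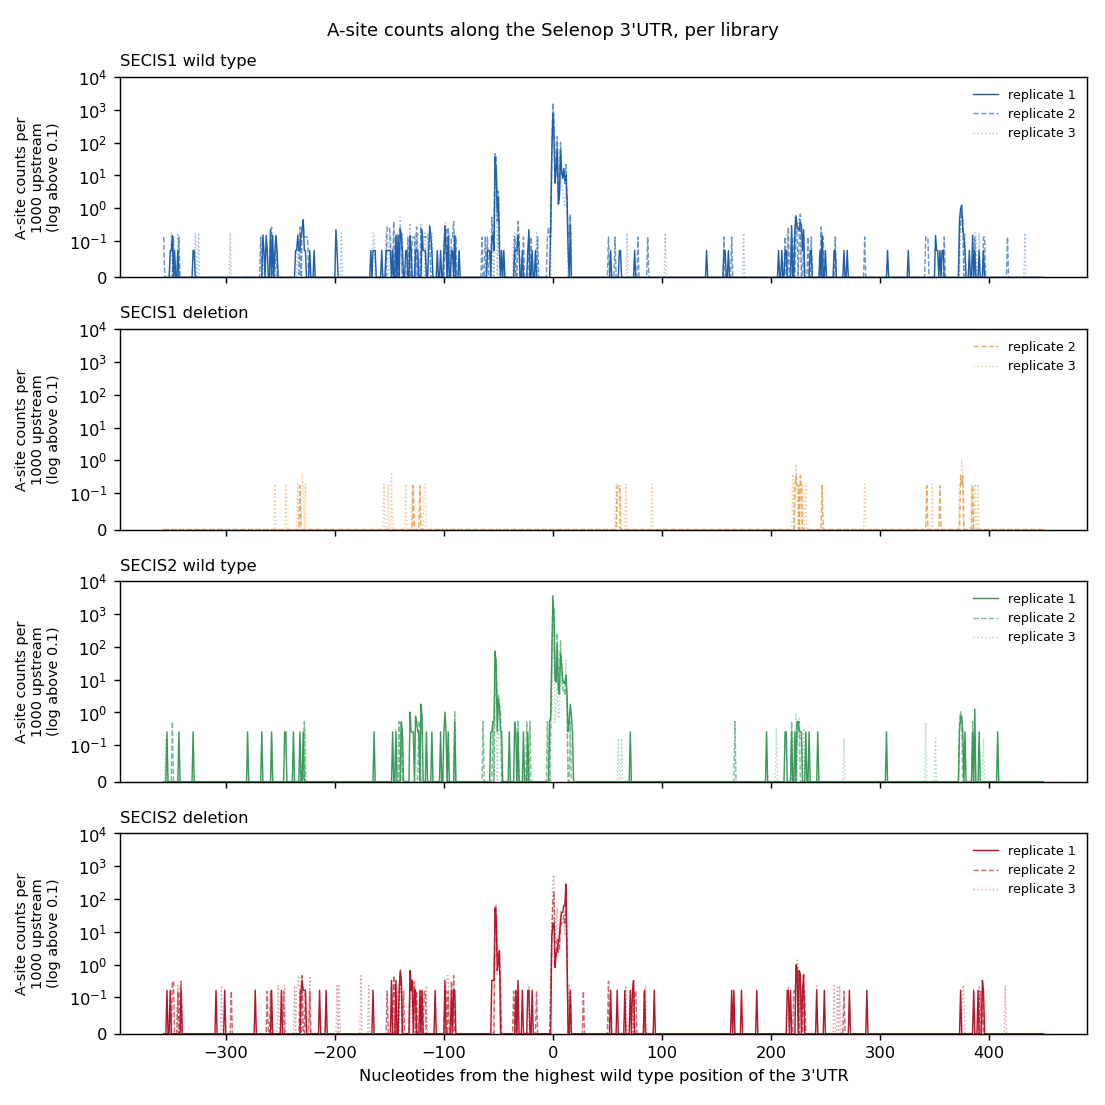
A-site counts along the Selenop 3′UTR, 1 line per library and 1 panel per group; the x axis gives nucleotides from the highest wild type position (nucleotide 1646), the y axis counts per 1000 upstream counts, logarithmic above 0.1 and linear below. The tall cluster at 0 and the smaller one 53 nt before it are seen in 3 of the 4 groups, and the SECIS1 deletion panel holds scattered low counts on either side of an empty stretch.

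Counts were sparse outside these peaks. Of the 808 positions, 301 held a count in at least 1 grouped library and 507 held none. No position held counts in all 11 libraries, and 18 held counts in all 9 libraries outside the SECIS1 deletion. Of those 18, 17 lay in the 2 clusters described next.

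The longest stretch of the 3′UTR without any count in either SECIS1 deletion library ran from nucleotide 1530 to 1703, 174 nt. In the other libraries it held nearly the whole 3′UTR signal. SECIS1 wild type libraries had 16563, 21105 and 10739 counts there, SECIS2 wild type 19392, 6865 and 1498, and the SECIS2 deletion 4056, 4280 and 5894. These were 97.3% to 99.8% of the 3′UTR counts of each of those 9 libraries. With a floor of 3 counts per library, the mean per 1000 upstream was at least 3665-fold lower in the SECIS1 deletion than in SECIS1 wild type. Because its bounds were set from the deletion, this absence is a description. The sources used here do not say whether the stretch is the sequence removed from the genome.

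Within that stretch, positions with at least 0.1% of the pooled wild type counts formed 2 clusters. The main cluster spanned 14 nt, from 1645 to 1658, and a 5′ cluster spanned 4 nt, from 1593 to 1596, with its first position 53 nt before the main peak. Everything between and around them was nearly empty. The rest of the stretch held 83, 62 and 22 counts in SECIS1 wild type, 66, 17 and 9 in SECIS2 wild type, against 48, 45 and 21 in the SECIS2 deletion.

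The main cluster held 1166, 2706 and 1856 counts per 1000 upstream in SECIS1 wild type and 0 and 0 in the SECIS1 deletion. It held 4841, 3526 and 228 in SECIS2 wild type, against 577, 533 and 1201 in the SECIS2 deletion. The order of the libraries is that of the whole 3′UTR, since this cluster makes up most of it. Per nucleotide, wild type density in the cluster exceeded that of the upstream reading frame in every library, from 230% of it in SECIS2 wild type library 3 to 4875% in SECIS2 wild type library 1.

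The site at nucleotides 1645 to 1647 is the 5′ edge of that cluster. It held 13002, 17623 and 9222 counts in SECIS1 wild type, 0 and 0 in the SECIS1 deletion, 17844, 5696 and 894 in SECIS2 wild type, against 260, 1646 and 4145 in the SECIS2 deletion. Per 1000 upstream counts, the SECIS2 wild type libraries stood at 4567, 3003 and 146 and the SECIS2 deletion libraries at 42.7, 254 and 947. Wild type libraries 1 and 2 of that line were above all deletion libraries, and library 3 fell among them.

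Position 1646 was the highest of the 3′UTR in all 3 SECIS1 wild type libraries, with 62.6%, 58.7% and 51.8% of its counts, and in SECIS2 wild type library 1, with 72.9%. In SECIS2 wild type libraries 2 and 3 and SECIS2 deletion libraries 2 and 3 the next nucleotide, 1647, was highest, with 41.4%, 42.0%, 24.9% and 40.4%. Within SECIS2 wild type the peak thus moved by 1 nt between libraries, and within the SECIS2 deletion it stood at 1647 in libraries 2 and 3 and at 1658 in library 1. Smaller maxima, positions above both of their neighbours, stood at 1650 in 8 of the 9 libraries with this cluster and at 1653 in 6 of them. In SECIS1 wild type library 1 these positions held 892 and 780 counts. SECIS2 deletion library 1 had neither maximum, with counts that rose from 16 at 1650 to 135 at 1653 and 237 at 1654. At 1653, SECIS2 wild type library 3 and SECIS2 deletion library 2 had none either.

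The site at nucleotide 1658 is the 3′ edge of the cluster, 12 nt after the main peak. It held 140, 162 and 25 counts in SECIS1 wild type, 0 and 0 in the SECIS1 deletion, 55, 19 and 240 in SECIS2 wild type, against 1752, 1049 and 287 in the SECIS2 deletion. Per 1000 upstream counts, SECIS2 wild type libraries had 14.1, 10.02 and 39.1 there and SECIS2 deletion libraries 288, 162 and 65.5. All 3 deletion libraries lay above all wild type libraries of both lines, and SECIS2 deletion library 3 was the lowest of its group.

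The edges of the cluster thus ran in opposite order across the SECIS2 deletion libraries. In SECIS2 deletion library 1, position 1658 was the highest of the 3′UTR, with 42.3% of its counts. Counts at 1658 were 6.74 times those at 1645 to 1647 in that library, 0.637 times in library 2 and 0.0692 times in library 3. In SECIS1 wild type the ratio was 0.0108, 0.00919 and 0.00271, and in SECIS2 wild type it was 0.00308, 0.00334 and 0.268. SECIS2 wild type library 3 thus fell inside the range of the SECIS2 deletion, while the other 5 wild type libraries were below it.

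The whole 3′ end of the cluster followed 1658. Nucleotides 1654 to 1658 held 85.8%, 46.8% and 11.1% of the cluster in the SECIS2 deletion libraries, 1.49%, 1.33% and 27.8% in SECIS2 wild type, against 4.75%, 2.30% and 0.836% in SECIS1 wild type. The mean distance of the cluster's counts from nucleotide 1646 was 9.92, 5.82 and 2.13 nt in the SECIS2 deletion libraries. It was 0.518, 1.20 and 3.94 nt in SECIS2 wild type, against 1.19, 0.996 and 0.956 nt in SECIS1 wild type. Libraries with fewer counts at the 5′ edge had more at the 3′ edge within the SECIS2 deletion, and SECIS2 wild type library 3, the wild type library with the lowest 5′ edge, had the highest share at the 3′ edge among the wild types. What sets this balance was not tested.

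**Figure D2:**
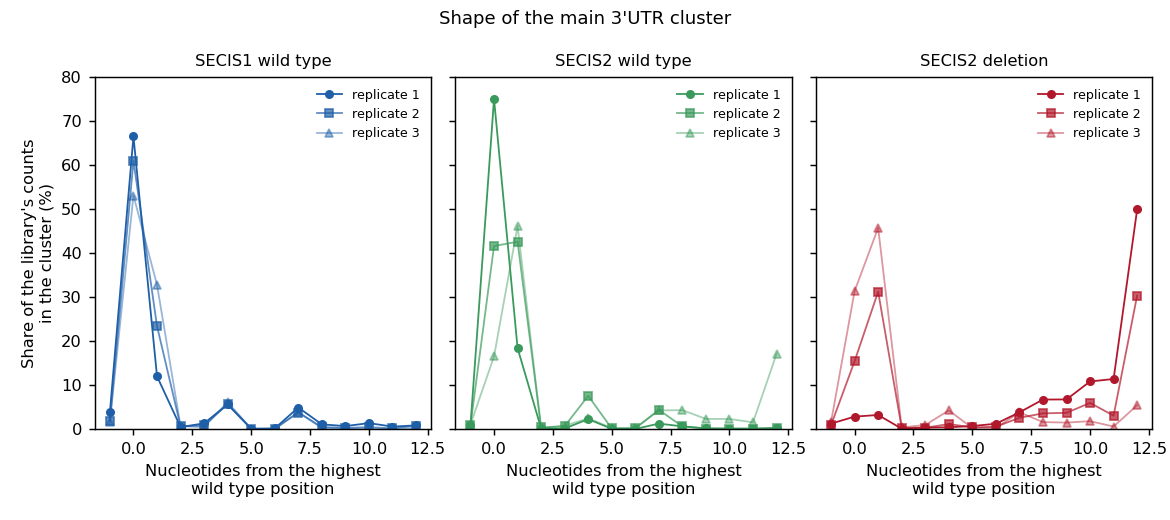
Share of the main cluster's counts at each of its 14 positions, by distance from nucleotide 1646, 1 line per library, for the 3 groups with counts there. Wild type libraries peak at 0 or 1 nt, SECIS2 deletion library 1 peaks at 12 nt with 49.9% of the cluster, and SECIS2 wild type library 3 holds 17.1% at 12 nt.

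**Figure D3:**
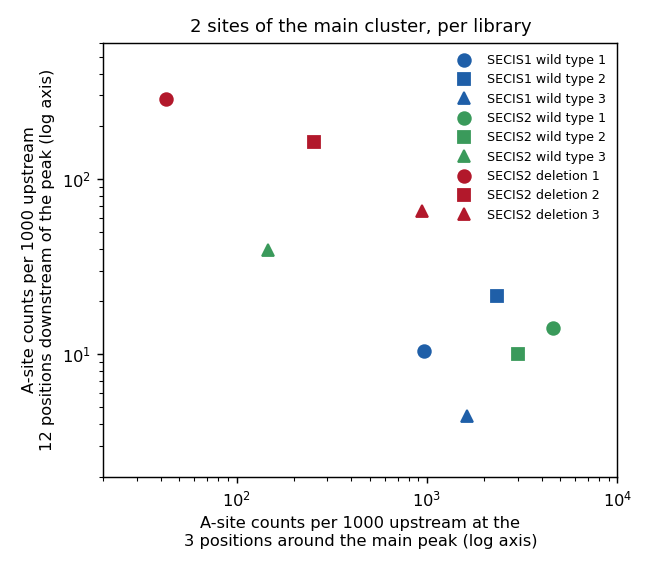
Counts per 1000 upstream at nucleotide 1658 (y, log axis) against those at 1645 to 1647 (x, log axis), 1 point per library. The 3 SECIS2 deletion libraries run from top left to lower right, and SECIS2 wild type library 3 lies apart from the other 5 wild type libraries; the SECIS1 deletion, with 0 counts at both sites, cannot be drawn on log axes.

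The 5′ cluster had levels in the SECIS2 deletion that overlapped those of its wild type. At nucleotides 1593 to 1596, SECIS1 wild type libraries held 719, 650 and 194 counts, the SECIS1 deletion 0 and 0, SECIS2 wild type 414, 160 and 88, and the SECIS2 deletion 500, 783 and 612. Per 1000 upstream counts the SECIS2 wild type libraries had 106, 84.3 and 14.3 and the SECIS2 deletion libraries 82.2, 121 and 140. SECIS2 deletion libraries 2 and 3 lay above, and library 1 among, the wild type libraries. The log2 difference of the SECIS2 deletion from its wild type was 1.14 (SE 0.94), and 0.24 without SECIS2 wild type library 3. The groups overlapped in both cases. The cluster's bounds were set from pooled wild type counts, SECIS2 wild type among them. These differences are therefore a description with no test.

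As a share of the 3′UTR, however, the 5′ cluster was 12.1%, 18.0% and 10.3% in the SECIS2 deletion libraries against 2.13%, 2.33% and 5.71% in SECIS2 wild type, against 4.29%, 3.07% and 1.80% in SECIS1 wild type. All 3 SECIS2 deletion libraries lay above all 6 wild type libraries, SECIS2 wild type library 3 being the nearest. The share is a description, since its denominator, the whole 3′UTR, is mostly the main cluster, whose sites chose the 3′UTR.

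**Figure D4:**
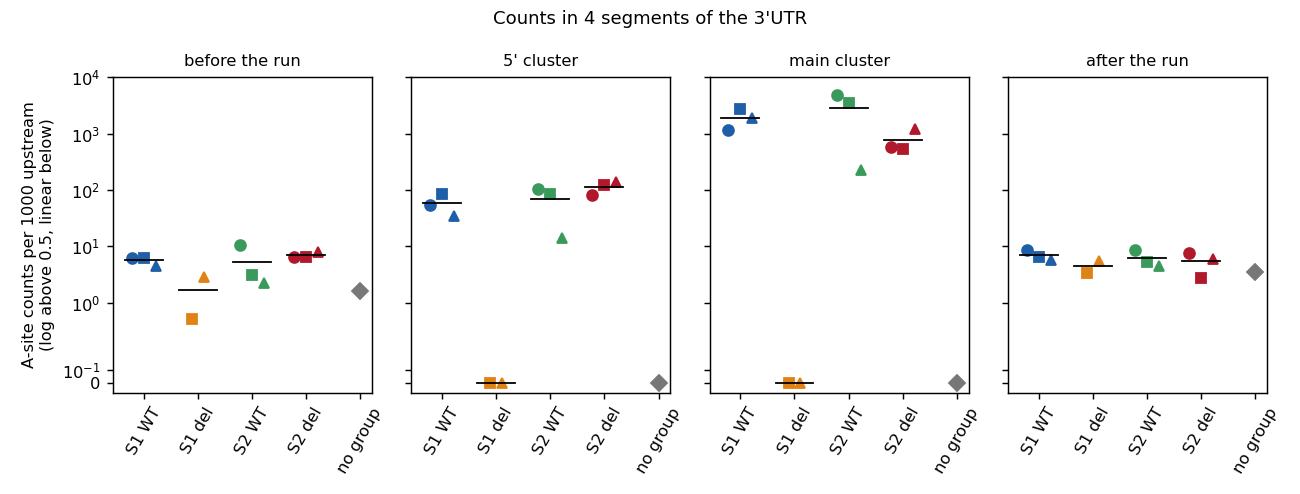
Counts per 1000 upstream counts in 4 segments of the 3′UTR, 1 point per library (circle, square and triangle for libraries 1, 2 and 3), with the group mean as a bar; y axis logarithmic above 0.5 and linear below, S1 and S2 for the SECIS1 and SECIS2 lines. The SECIS1 deletion lies at 0 in both clusters and near the other groups after nucleotide 1703.

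Outside the 174-nt stretch the 3′UTR held 0.0298% to 0.614% of the upstream density in its first segment, nucleotides 1289 to 1529. That segment had 6.14, 6.24 and 4.58 counts per 1000 upstream in SECIS1 wild type and 0.509 and 2.84 in the SECIS1 deletion, from 3 and 15 counts. The groups did not overlap and the log2 difference was -2.10 (SE 1.16), with exact permutation p = 0.1, the smallest possible. SECIS2 wild type libraries had 10.5, 3.16 and 2.28 and SECIS2 deletion libraries 6.41, 6.49 and 7.99, which overlapped (log2 difference 0.67, SE 0.66, exact permutation p = 0.4, and 0.22 without SECIS2 wild type library 3).

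Nucleotides 1704 to 2096, after the stretch, hold the chosen site at 2009 to 2033. Their values are therefore a description with no test. The SECIS1 wild types had 8.58, 6.50 and 5.64 counts per 1000 upstream and the SECIS1 deletion 3.39 and 5.49, a log2 difference of -0.64 (SE 0.38). SECIS2 wild type libraries had 8.70, 5.27 and 4.56 and the SECIS2 deletion 7.73, 2.78 and 5.94. Their log2 difference was -0.25 (SE 0.52), and -0.45 without SECIS2 wild type library 3. The SECIS1 groups did not overlap by a narrow margin, 5.49 against 5.64, and the SECIS2 groups did.

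The site at nucleotides 2009 to 2033 lies in that last segment. It held 46, 15 and 11 counts in SECIS1 wild type, 6 and 12 in the SECIS1 deletion, 15, 5 and 1 in SECIS2 wild type, against 2, 0 and 2 in the SECIS2 deletion. Per 1000 upstream counts these were 3.40, 1.99 and 1.94, then 1.02 and 2.27, then 3.84, 2.64 and 0.163, and in the SECIS2 deletion 0.329, 0 and 0.457. SECIS2 deletion libraries were low together with SECIS2 wild type library 3. A count of 0 in SECIS2 deletion library 2 allows up to 0.464 per 1000 upstream.

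Most of the wild type counts of this site lay at 2019 to 2022, a small cluster that was also seen in both SECIS1 deletion libraries. Its means per 1000 upstream were 2.05 ± 0.756 (SD, n = 3) in SECIS1 wild type, 1.37 ± 0.739 (SD, n = 2) in the SECIS1 deletion, 1.39 ± 1.20 (SD, n = 3) in SECIS2 wild type, against 0.131 ± 0.118 (SD, n = 3) in the SECIS2 deletion. SECIS1 deletion library 3, at 1.89, lay inside the range of its wild type, and library 2, at 0.848, lay below it. The SECIS2 wild type mean was 2.08 ± 0.0431 (SD, n = 2) without its library 3. SECIS2 wild type library 3 had 0 counts here and the 3 SECIS2 deletion libraries 1, 0 and 1. The longest stretch without counts in the SECIS2 deletion, 1935 to 2019, ends at this cluster. It held only 15, 5 and 0 counts in SECIS1 wild type and 2, 1 and 4 in SECIS2 wild type. Because it was picked as the longest empty stretch of the SECIS2 deletion, its emptiness is a description.

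A cluster at 1869 to 1876 was present in all 11 grouped libraries, with 31, 11 and 9 counts in SECIS1 wild type, 7 and 7 in the SECIS1 deletion, 7, 3 and 15 in SECIS2 wild type, against 22, 9 and 14 in the SECIS2 deletion. Its mean per 1000 upstream was 1.78 ± 0.449 (SD, n = 3), 1.26 ± 0.0971 (SD, n = 2), 1.94 ± 0.449 (SD, n = 3) and 2.74 ± 1.18 (SD, n = 3) in that order. The SECIS2 wild type mean was 1.69 ± 0.149 (SD, n = 2) without its library 3. The SECIS2 groups overlapped with that library and without it, and both SECIS1 deletion libraries lay just below their wild type. A cluster at 1506 to 1507, before the stretch, held 5, 3 and 3 counts in SECIS1 wild type, 0 and 0 in the SECIS1 deletion, 2, 1 and 3 in SECIS2 wild type, against 6, 4 and 6 in the SECIS2 deletion. At 0 against 3 to 5 counts, the depth does not show a difference in the SECIS1 line there.

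**Figure D5:**
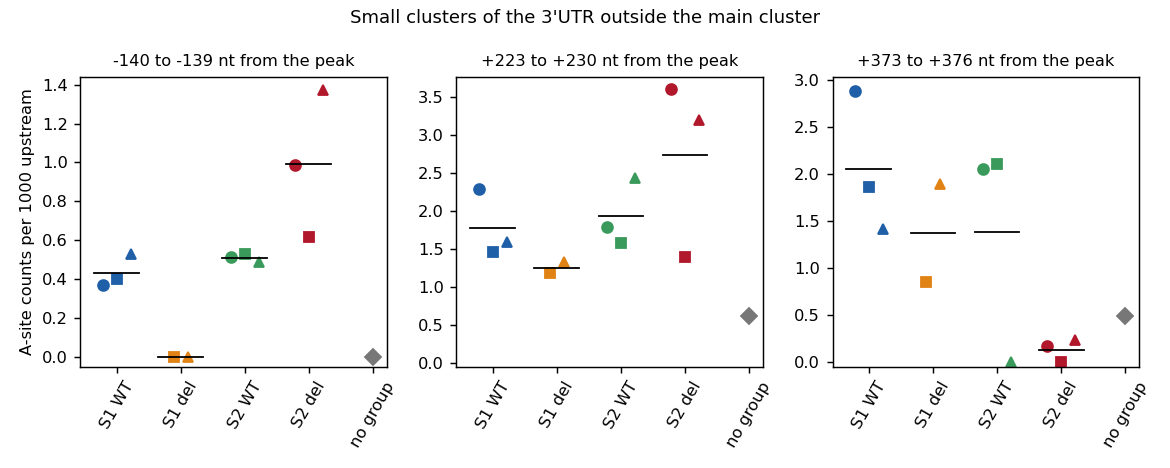
Counts per 1000 upstream at 3 small clusters, 140 to 139 nt before and 223 to 230 and 373 to 376 nt after nucleotide 1646, 1 point per library with the group mean as a bar, linear axes with a scale of their own per panel, S1 and S2 for the lines. The cluster 223 to 230 nt after the peak is above 0 in every library; the one 373 to 376 nt after it lies between 0 and 0.228 in the SECIS2 deletion and at 0 in SECIS2 wild type library 3.

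In windows of 20 nt over the whole mRNA, tested with edgeR's quasi-likelihood test on the upstream scale, only 7 of the 41 windows of the 3′UTR had enough counts to be tested, beside 58 windows before it. Of these 7, 3 overlap the sites that chose the 3′UTR, so calls and medians over the 7 are a description. Only 3 lie outside both those sites and the empty stretch. In the SECIS1 deletion 3 of the 7 were lower and 0 higher, where 27.7% of all 65 windows tested were lower. All 3 lie in the empty stretch, so the count restates it. The median log2 difference was -1.98 over the 7 windows and 0.01 over all windows.

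In the SECIS2 deletion 0 of the 7 windows passed the threshold in either direction, where 46.2% of all windows tested were lower and 0% were higher. Of the 3 outside the sites and the empty stretch, 0 passed and 0 had an unadjusted p under 0.05. By edgeR 1 of the 7 had an unadjusted p under 0.05, the window at 1629 to 1648, which overlaps a chosen site. DESeq2 called 1, which was lower. The median log2 difference was 0.31 over the 7 windows and -0.86 over all windows. Without SECIS2 wild type library 3, 2 windows were called lower, both of which overlap the chosen sites, and without SECIS2 wild type library 1, 1 was called higher. In the comparison of the wild types 0 of 7 passed, where 6.15% of all windows were lower in the SECIS1 line. Of the 3 outside the sites and the empty stretch, 0 passed. Between the wild types 0 of the 7 had an unadjusted p under 0.05 by edgeR and DESeq2 called 0, and 1 was called without SECIS2 wild type library 3.

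For the difference of the deletions, each against its own wild type, 4 of the 7 windows were called, all lower for SECIS1, where 23.1% of all windows tested were lower and 36.9% higher. Of these 4, 3 lie in the empty stretch and restate it, as their calls follow from how it was bounded. The other was the window at 1489 to 1508, upstream of it, which held 17, 15 and 7 counts in SECIS1 wild type, 0 and 4 in the SECIS1 deletion, 5, 2 and 7 in SECIS2 wild type, against 11, 10 and 10 in the SECIS2 deletion. There the deletions differed by -2.63 in log2 units (SE 0.96, edgeR adjusted p = 0.0293), and by -2.59 without SECIS2 wild type library 3 (edgeR adjusted p = 0.0304). It missed the threshold without SECIS1 wild type library 2 (-2.38, edgeR adjusted p = 0.0694), SECIS1 deletion library 2 (-1.60, adjusted p = 0.160), SECIS2 deletion library 1 (-2.65, adjusted p = 0.0525) or SECIS2 deletion library 3 (-2.49, adjusted p = 0.0599). Neither deletion alone passed there, with -1.98 (SE 0.76, edgeR adjusted p = 0.0751) for SECIS1 and 0.65 (SE 0.58, edgeR adjusted p = 0.369) for SECIS2, which was 0.61 without SECIS2 wild type library 3.

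The window at 1869 to 1888, with the cluster present in every library, differed by -0.55 (SE 0.51, edgeR adjusted p = 0.639) in the SECIS1 deletion and by 0.37 (SE 0.45, edgeR adjusted p = 0.502) in the SECIS2 deletion, both within the spread. Their difference was -0.92 (SE 0.68, edgeR adjusted p = 0.258). Without SECIS2 wild type library 3 the SECIS2 value was 0.49 and the difference -1.05, neither called.

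The low counts outside the 174-nt stretch favoured the first position of a codon less than counts in the reading frame did. Translating ribosomes move by codons, so A-site counts in a reading frame favour one of the 3 positions of a codon. Counted from the start codon set at nucleotide 155, 58.5% ± 3.50 (SD, n = 11) of the coding counts lay at the first position of a codon, and in the 3′UTR outside the stretch 32.2% ± 6.57 (SD, n = 11). The coding counts include the initiation peak from which that start codon was set. The 3′UTR counts outside the stretch include the chosen site at 2009 to 2033. The comparison is therefore a description with no test. The share was lower in the 3′UTR in 11 of 11 libraries, by 12.8 to 37.5 percentage points. The mean difference was -26.3 percentage points over the 11 libraries. It was -27.3 percentage points without SECIS2 wild type library 3 (n = 10). In 9 of 11 libraries the 95% Clopper-Pearson intervals of both shares were apart; the 3′UTR shares rest on 16 to 199 counts per library. Pooled by group, the 3′UTR share was 33.7% (28.8% to 38.9%) in SECIS1 wild type, 29.9% (19.3% to 42.3%) in the SECIS1 deletion, 41.4% (32.9% to 50.2%) in SECIS2 wild type, against 26.6% (20.7% to 33.1%) in the SECIS2 deletion. Without library 3 the SECIS2 wild type share was 44.0% (33.6% to 54.8%). Whether a weaker rhythm remained in the 3′UTR was not tested. Intervals and floors cover counting error only.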

How the data were processed

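Footprints were made with RNase I from homogenized liver, per the labels' protocols, and aligned with Bowtie to mm9, per the submitters' processing notes; the Bowtie version and the A-site rule are not given in the sources used here. The authors deposited A-site counts, whole numbers per nucleotide of Selenop for 12 libraries, not normalized. Per the file headers, their second table is a ratio, footprint counts scaled to mapped footprints over Selenop RNA reads scaled to mapped RNA reads, and RNA-seq entered only through it. Within a library the ratio was a constant times the counts. Of the per-sample columns, 0 were left unused.

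The 3′UTR, its sites, the clusters and every list were chosen with earlier results of these data known. Groups came from titles. Windows of 20 nt, anchored at nucleotide 1289, were tested over the whole mRNA by edgeR's quasi-likelihood test (edgeR 4.0.16, R 4.3.3, 4 group means, upstream counts as library size, filterByExpr, Benjamini-Hochberg adjustment, threshold 0.05); positive log2 fold changes mean more in the deletion. Summed counts were compared as log2 per upstream count with exact two-sided permutation tests (scipy 1.17.1), with 0.5 counts added for parts of the 3′UTR. With 3 against 3 or 3 against 2 libraries the smallest p is 0.1, so no such test can pass the threshold. None is printed for the whole 3′UTR or for the segment after the empty stretch, as both hold sites that chose the 3′UTR. The 5′ cluster has none either, as its bounds were set from wild type counts. For 0 counts, a floor of 3 counts per library was used. Clusters in the empty stretch joined positions at most 2 nt apart; small clusters elsewhere needed 10 pooled counts. Reading frame was counted from nucleotide 155, 3 before the initiation peak at 158.

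Named regions were the sites of the selection, positions with at least 1% of 3′UTR counts in every library of a group, called windows outside them, the edge and the longest empty stretches; the small clusters were named after their values were seen. On simulated counts the SECIS2 window test with 30 changed windows recovered 72.7% of 2-fold changes, with 3.81% of calls wrong, and 97.7% of 4-fold changes, with 2.39% wrong. The changed windows were drawn from those of the whole mRNA above a minimum of expected counts, and every window had the same fixed spread. In the real SECIS2 comparison the SE reached 1.13 at 1629 to 1648 and 1.25 at 2009 to 2028. These rates therefore do not carry over to the 3′UTR windows. No replicates looked like 1 library deposited again (lowest chi-square per degree of freedom 2.88). Alternatives were other library sizes and scales, TMM, DESeq2 1.42.0, no filter, only the compared groups, a replicate block, windows of 10 and 40 nt, the authors' ratio, the highest positions left out, a later start of the 3′UTR, the library without a group added, and each library left out.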

Additional observations from a re-analysis of the deposited data

Results flagged for a closer look

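The test of the difference of the deletions (edgeR's quasi-likelihood interaction) called 2 windows of the 3′UTR outside the sites that chose it, both with limits. At 1489 to 1508 the log2 difference of the SECIS1 from the SECIS2 effect was -2.63 (edgeR adjusted p = 0.0293), and it was not called when any 1 of 4 libraries was left out. At 1589 to 1608, which holds the 5′ cluster, it was -12.21, from 727, 658 and 195 counts in SECIS1 wild type, 0 and 0 in the SECIS1 deletion, 429, 166 and 90 in SECIS2 wild type, against 522, 798 and 618 in the SECIS2 deletion. That window lies in the stretch whose bounds were set from the SECIS1 deletion, so its call follows from those bounds and is a description. Its fitted size depends on how a count of 0 is treated. With the floor of 3 counts per library, the 5′ cluster was at least 107.5-fold lower in the SECIS1 deletion than in its wild type.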

How the results depend on the processing

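Counts of called 3′UTR windows held within 1.5 times under all alternatives run, except these. For the SECIS1 deletion, no filter on low counts gave 5 in place of 3. For the SECIS2 deletion, 0 became 1 higher with library size taken from the whole mRNA, 1 lower with DESeq2 and 1 lower with no filter. Leaving out a library gave 3 to 4 for SECIS1, 0 to 2 for SECIS2 (2 without SECIS2 wild type library 3), 3 to 5 for the difference of the deletions and 0 to 1 between wild types.

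The log2 difference of the whole 3′UTR kept its direction in SECIS1, from -8.91 to -7.82 with a library left out. In SECIS2 it ran from -2.32 to -0.16 with a library left out, and became 0.52 with the 5 highest positions left out. Between the wild types it ran from -1.18 to 0.98, turning to -0.11 without SECIS1 wild type library 2 and to -1.18 without SECIS2 wild type library 3. The window at 1509 to 1528 in SECIS2 was -0.51, and -1.29 to 2.07 with a library left out (2.07 without SECIS2 wild type library 1). It was 0.46 with the whole mRNA, 0.0705 with coding counts and 0.27 with TMM as library size. The cause was not tested. For single windows outside the chosen sites, each comparison was counted once per alternative. Of these counts, 4 passed the threshold though the main fit did not, and 4 no longer passed, all 4 for the window at 1489 to 1508.

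Replicate numbers did not pair the samples (r from -0.41 to -0.01 between same-numbered libraries over windows). With the replicate block the called windows numbered 3, 0, 4 and 0, and the 3′UTR differences were -8.67, -0.96 and 0.18. A fit of the difference of the deletions with only the compared groups holds all groups, so it was not run. Depth limits the 3′UTR outside the clusters, where 34 of 41 windows could not be tested.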

Other observations

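The library titled H19:H391, which the title puts in no group, held 43 counts in the 3′UTR among 27317 on the mRNA, or 5.29 per 1000 upstream counts. It had 1 count between nucleotides 1530 and 1703 and 0 in either cluster. Its longest stretch without counts ran from 1516 to 1670, 155 nt. It held 13 counts before the 174-nt stretch and 29 after it, 5 of them at 1869 to 1876 and 4 at 2019 to 2022. With it added to the SECIS1 deletion, as its column heading has it, the log2 difference of the whole 3′UTR from SECIS1 wild type was -8.40, and the window at 1489 to 1508, where it held 2 counts, was called lower (-2.17, edgeR adjusted p = 0.0139).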
